A study of Mus musculus with 47 samples.

Results

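The genes described here encode a pair of contact and short-range guidance systems: the semaphorins with their plexin and neuropilin receptors, and the ephrins with their Eph receptors. All protein-coding mouse genes with a symbol of these families were taken from the deposited tables by name alone, which gave 53 of 45706 genes: 20 semaphorins, 9 plexins, 2 neuropilins, 14 Eph receptors and 8 ephrins. They were followed across 47 polyA RNA-seq libraries in 16 groups of C2C12 cells, an immortalized line of mouse skeletal myoblasts that fuses into multinucleated myotubes when serum is withdrawn. In C2C12 iMyoD1, cells with endogenous MyoD1 also carry Halo-MyoD1, a tagged copy of the muscle-determining transcription factor, under a doxycycline (dox) responsive promoter, and C2C12 iCdh23 and C2C12 iMcam carry inducible copies of the adhesion genes Cdh23 and Mcam. The study asked how an altered dose of MyoD1 changes myogenic differentiation. Dox at 1 µg/mL was compared with vehicle, called untreated, in C2C12 iMyoD1 kept for 24 h in growth medium (0 h of differentiation) or serum-starved for 24, 48 or 120 h, and in C2C12 iCdh23 and C2C12 iMcam serum-starved for 48 h. At 120 h, whole cultures were sequenced beside 2 fractions of trypsinized cultures passed over a 40 µm filter. The flow-through was enriched in myoblasts and the retained material in myotubes. Every group held 3 libraries labelled as biological replicates, except the myoblast-enriched fraction with dox, which held 2. The lines are pools of cells that integrated the transgene by transposition. Dox induces the transgene in only a part of the cells, and no dox-treated line without a transgene was among the libraries.

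Semaphorins are secreted (class 3) or membrane-bound (classes 4 to 7) ligands. Class 3 members bind mostly through neuropilin co-receptors to plexin-A receptors and plexin-D1, class 4 members through B-type plexins, and the signal reaches small GTPases and the cytoskeleton. Ephrin-A ligands are held to the membrane by a lipid anchor and ephrin-B ligands by a transmembrane segment. They bind EphA and EphB receptor tyrosine kinases on the neighbouring cell and commonly cause repulsion or separation of cells. In skeletal muscle both systems are known for axon guidance to the muscle and for the movement and sorting of muscle precursors.

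The library totals ran from 15066338 to 50950674 estimated counts with a median of 22837926, and the 53 genes held between 0.133% and 0.357% of a library. Levels are given as CPM, counts scaled to library size with a factor fitted over all 47 libraries. Levels of different genes are compared only as TPM, which divides by transcript length and scales each library to its own total, without that factor. Sums over genes are in TPM too. A gene was called changed when edgeR's quasi-likelihood test gave a Benjamini-Hochberg adjusted p under 0.05 over all genes tested and the change was over 2-fold. Log2 fold changes are given ± SE. The study describes the replicates as independent biological replicates, and the p-values measure the spread between these libraries. Myod1 itself does not check the dox labels, since its CPM at 0 h came to 177.5 ± 5.77 untreated and 188.1 ± 9.59 after dox (SD, 3 libraries each), and it lay lower after dox at later times. It went from 134.6 ± 4.31 to 117.0 ± 6.67 CPM at 24 h, from 387.6 ± 4.91 to 305.9 ± 14.9 at 48 h and from 279.9 ± 42.3 to 92.0 ± 8.46 in the whole cultures of 120 h. The dox labels of this line were therefore taken as given, and directions with dox rest on them. In C2C12 iCdh23 the untreated and dox-treated levels of Cdh23 were 389.3 ± 54.2 and 486.0 ± 73.6 CPM, and these groups overlapped, so Cdh23 does not check the dox labels of this line either. Untreated C2C12 iMcam held 7.73 ± 1.84 CPM of Cdh23. In C2C12 iMcam the levels of Mcam were 18.1 ± 1.49 and 71.3 ± 3.02 CPM, without overlap, and in C2C12 iCdh23 they were 6.28 ± 1.42 and 49.1 ± 4.82 CPM. Of the markers that define other cell types, Ptprc, Epcam, Sox10 and all 4 endothelial genes stayed under 1 CPM in every library. The libraries of 0 and 24 h carry no batch label, while all others carry the label RNAseq_v2.

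The myotube-enriched libraries labelled replicate 2 lay crosswise to their labels. Among genes called with dox in the myoblast-enriched fraction, other than the 53, 170 rose and 259 fell, and the median log2 level of the former minus that of the latter was -3.19 in untreated myotube-enriched replicate 1 and -2.91 in replicate 3, but -0.11 in the library labelled untreated replicate 2. With dox the difference was -0.07 and -0.52 in replicates 1 and 3, but -3.16 in the library labelled dox replicate 2. In the myoblast-enriched fraction it ran from -3.53 to -3.19 in the untreated libraries and was -0.05 and -0.39 with dox. The cause was not tested, the labels were kept, and results that rest on these 2 libraries are followed by values without them.

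Before dox and differentiation, C2C12 iMyoD1 cells held RNA for each of the 5 families. Per transcript length, Plxnb2, a receptor for class 4 semaphorins, stood highest of all members at 163.8 ± 3.28 TPM (SD, n = 3) in untreated cells at 0 h. It was followed by the co-receptor Nrp2 at 98.3 ± 4.70, the kinase-inactive receptor Ephb6 at 68.7 ± 3.40, the ephrin-A1 receptor Epha2 at 65.5 ± 1.41, the secreted Sema3b at 55.6 ± 2.86 and the ligand Efna1 at 48.6 ± 0.784 TPM. A few members thus led their families, while Epha5, Epha6 and Epha10 never exceeded 3 counts in any library. Epha3 and Plxnc1 were also too low to be tested in any comparison, so 48 of the 53 genes entered a test and 41 entered all 13. Of those 48, 40 (83.3%) were called in at least 1 of the 13 comparisons, against 60.9% of the 15939 genes tested in any of them. In at least 1 of the 8 comparisons of dox with untreated cells 30 (62.5%) were called, against 39.9% of 15897 genes. By edgeR as fitted here, the 8 tested genes without a call in any of the 13 were Efna1, Efnb3, Epha8, Plxna1, Plxnb2, Sema3e, Sema4a and Sema4b, and Plxnb2 kept a group mean between 234 and 579 CPM over all 16 groups. Of these, DESeq2 called Epha8 lower with dox at 24 h (-2.23, adjusted p = 0.0136) and from 24 to 48 h, and Sema4a, Sema3e, Efnb3 and Plxna1 were each called in at least 1 other setting.

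**Figure D1:**
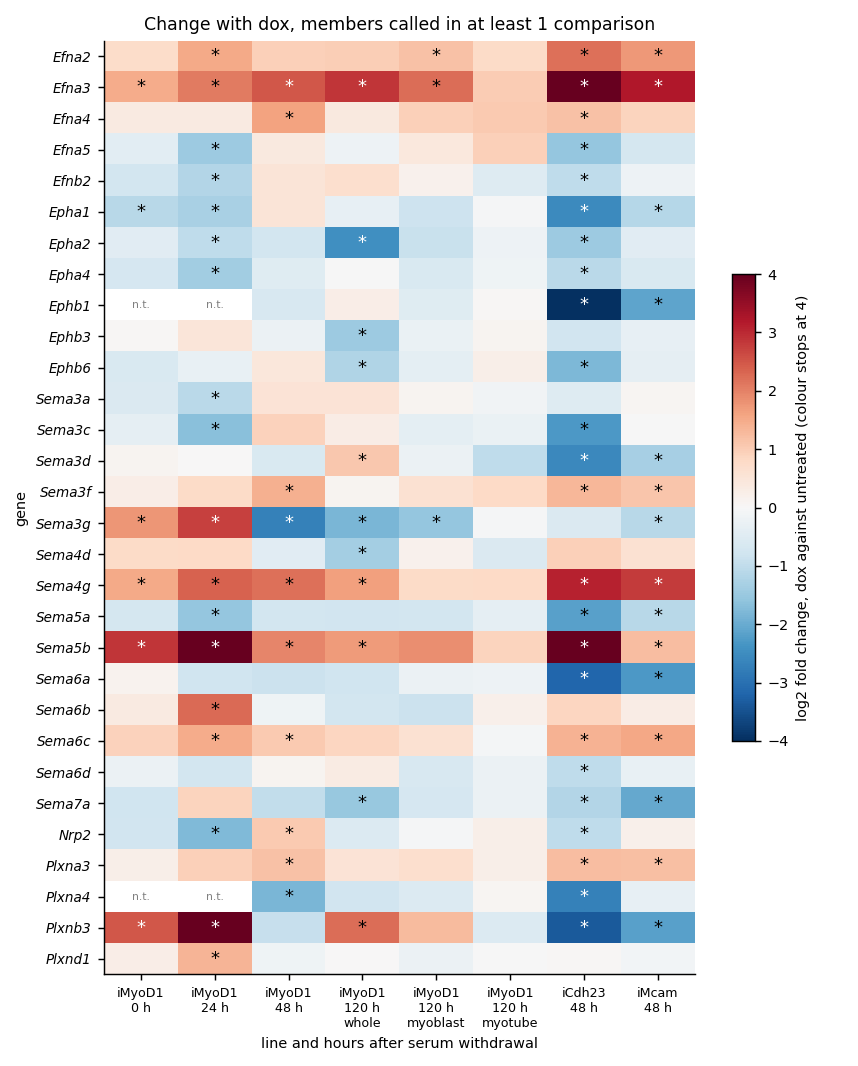
Log2 fold change of dox against untreated cells (colour, which stops at 4 in either direction) for the 30 genes called in at least 1 of the 8 comparisons (columns: line and hours after serum withdrawal, with 0 h in growth medium). Stars mark calls (adjusted p under 0.05 and over 2-fold) and n.t. marks genes not tested. Efna3 was called up in 7 columns, Sema4g and Sema5b in 6, and the myotube-enriched column holds no star.

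In growth medium dox raised 5 members and lowered 1 of 44 tested, 13.6% of them, where 4.27% of all 13550 genes tested were called. Over all genes, 2.91% were called up and 1.36% down. The groups did not overlap for 27 of 44 members and for 49.3% of all genes. The risers were Efna3, an ephrin-A ligand, the membrane-bound Sema4g and Sema5b, the secreted Sema3g and the B-type plexin Plxnb3. Efna3 stood at 3.82, 4.80 and 4.89 CPM in the untreated libraries and at 11.1, 13.3 and 13.7 CPM with dox (log2 fold change 1.49 ± 0.14, adjusted p = 2.5e-06), so that each dox library lay above each untreated one. Sema3g went from 1.20, 1.20 and 2.15 to 4.97, 5.42 and 5.14 CPM (log2 fold change 1.77 ± 0.24, adjusted p = 6.6e-05). Sema4g went from 3.35, 2.00 and 1.45 to 7.33, 6.10 and 5.39 CPM (log2 fold change 1.503 ± 0.25, adjusted p = 0.00039). The other risers were low in both groups. Sema5b measured 0.119, 0.350 and 0.0499 CPM untreated and 1.32, 1.501 and 1.10 CPM with dox (log2 fold change 2.86 ± 0.49, adjusted p = 0.00044). Plxnb3 measured 0.179, 0.300 and 0.349 and 1.32, 1.06 and 2.44 CPM (log2 fold change 2.50 ± 0.45, adjusted p = 0.00058). Epha1, an ephrin-A receptor, was the single gene that fell, from 21.8, 27.8 and 23.5 to 11.98, 10.3 and 11.1 CPM (log2 fold change -1.12 ± 0.10, adjusted p = 2.1e-06), without overlap. Epha1 shares 236 exonic bases with the far more abundant gene Zyx on the opposite strand, and the library kit is named without its strand setting. Reads of both genes in the shared bases could therefore not be told apart, and Zyx changed by -0.53 ± 0.06 on the log2 scale here. The median log2 fold change was 0.07 over the members, 0.00 over all genes and 0.09 over the fifth of genes with the highest GC content. In these bulk libraries, fewer cells that express a gene and less RNA per cell cannot be told apart.

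MyoD1 binds the E-box, whose letters are CANNTG (a palindrome, so both strands are covered), and its preferred core is commonly given as CAGCTG. As these 5 genes rose together in growth medium and again at 24 h, their promoter windows, from 250 bases before to 50 bases after the annotated start in RefSeq on GRCm38.p6, were read for these letters. Windows were found for 47 of the 53 genes. At least 1 CANNTG lay in 50.8% of the 61 member windows, against 72.3% of all 32851 windows, and CAGCTG lay in 14.8% against 16.3%. Below are the windows of the 4 risers that hold an E-box, written along the gene's strand with each E-box in capitals.
Efna3, chr3:89322890-89323189, minus strand: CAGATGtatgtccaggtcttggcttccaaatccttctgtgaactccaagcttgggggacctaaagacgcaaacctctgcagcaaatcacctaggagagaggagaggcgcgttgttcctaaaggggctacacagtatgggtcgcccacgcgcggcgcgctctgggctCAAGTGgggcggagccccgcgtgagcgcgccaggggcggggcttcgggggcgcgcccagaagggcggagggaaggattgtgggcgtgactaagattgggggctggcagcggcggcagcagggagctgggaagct
Plxnb3, chrX:73756853-73757152, plus strand: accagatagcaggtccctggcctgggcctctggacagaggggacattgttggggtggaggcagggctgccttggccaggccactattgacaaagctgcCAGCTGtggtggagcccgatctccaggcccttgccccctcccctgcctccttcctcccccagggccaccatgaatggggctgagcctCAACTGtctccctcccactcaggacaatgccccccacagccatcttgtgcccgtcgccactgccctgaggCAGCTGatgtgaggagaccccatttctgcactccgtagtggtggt
Sema3g, chr14:31217623-31217922, plus strand: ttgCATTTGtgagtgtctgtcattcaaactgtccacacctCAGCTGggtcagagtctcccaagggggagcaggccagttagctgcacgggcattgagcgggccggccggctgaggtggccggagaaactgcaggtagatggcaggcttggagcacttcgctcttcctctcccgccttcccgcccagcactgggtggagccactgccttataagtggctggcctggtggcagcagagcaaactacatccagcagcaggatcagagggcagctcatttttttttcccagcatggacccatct
Sema4g, chr19:44989094-44989393, plus strand: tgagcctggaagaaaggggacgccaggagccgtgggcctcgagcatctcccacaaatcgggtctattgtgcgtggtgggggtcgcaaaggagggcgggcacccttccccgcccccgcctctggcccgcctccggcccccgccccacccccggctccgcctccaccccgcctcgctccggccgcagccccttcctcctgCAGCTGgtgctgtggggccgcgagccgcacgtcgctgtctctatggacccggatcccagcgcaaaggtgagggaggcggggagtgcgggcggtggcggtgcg
The E-boxes of Efna3 begin 250 and 84 bases before the start, those of Sema3g 247 and 210 bases before, and that of Sema4g 52 bases before. Plxnb3 holds 3, which begin 152 and 65 bases before the start and at base 6 of the transcript. A second Efna3 window and the Sema5b window hold none, but 90.1% of Sema5b's counts in the dox libraries of 0 and 24 h came from a transcript that starts outside that window. Such matches are letters in a window, and binding was not measured in these files.

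After 24 h of serum starvation, 9 members were higher with dox and 9 lower of 44 tested, 40.9% of them against 13.1% of all genes. Of all genes, 8.02% were called up and 5.13% down. Groups did not overlap for 38 of 44 members and for 66.8% of all genes. The rises included all 5 genes that had risen in growth medium, now joined by the ligand Efna2, the membrane-bound Sema6b and Sema6c, and Plxnd1, the receptor of Sema3e. Sema5b, at no more than 3 counts in any untreated library, reached 0.984, 0.962 and 0.912 CPM with dox. It was at least 8.65-fold higher against the floor of 3 counts per library (adjusted p = 6.1e-06). Plxnb3, likewise at the floor untreated, was at least 4.31-fold higher at 0.562, 0.333 and 0.530 CPM (adjusted p = 0.00073). Sema3g rose from 0.406, 1.10 and 0.970 to 5.93, 5.03 and 6.17 CPM (log2 fold change 2.74 ± 0.24, adjusted p = 1.3e-06). Sema4g went from 0.893, 0.426 and 1.07 to 3.94, 3.96 and 4.49 CPM (log2 fold change 2.35 ± 0.25, adjusted p = 6.2e-06). Sema6b went from 0.731, 0.709 and 0.623 to 2.95, 3.70 and 3.39 CPM (log2 fold change 2.25 ± 0.21, adjusted p = 1.6e-06). No dox library of these genes fell within the untreated range. Efna3 stood at 2.35, 2.69 and 2.84 CPM untreated and 11.7, 10.2 and 11.9 CPM with dox (log2 fold change 2.07 ± 0.12, adjusted p = 2.4e-08). Efna2 stood at 5.12, 5.75 and 5.16 and 15.3, 16.1 and 15.3 CPM (log2 fold change 1.52 ± 0.10, adjusted p = 6.5e-08), also without overlap.

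The falls at 24 h were spread over receptors and ligands. Nrp2, the co-receptor of several class 3 semaphorins, dropped from 229.5, 201 and 185 to 62.1, 63.6 and 59.9 CPM (log2 fold change -1.76 ± 0.07, adjusted p = 3.1e-09). Among the class 3 semaphorins, of which Sema3g had risen, Sema3c went from 16.2, 14.9 and 15.03 to 5.14, 5.03 and 4.73 CPM (log2 fold change -1.66 ± 0.09, adjusted p = 2.7e-08) and Sema3a fell by 1.07 on the log2 scale, while the summed TPM of the class was higher with dox. Sema5a, a membrane-bound semaphorin, fell from 130.3, 115 and 100.3 to 43.3, 38.8 and 37.9 CPM (log2 fold change -1.55 ± 0.09, adjusted p = 2.5e-08). On the Eph side the ligands Efna5 (22.9, 25.6 and 23.7 to 8.94, 8.25 and 9.35 CPM, log2 fold change -1.47 ± 0.08, adjusted p = 3.1e-08) and Efnb2 were lower. So were the receptors Epha4 (20.2, 16.1 and 17.9 to 8.15, 6.29 and 6.38 CPM, log2 fold change -1.40 ± 0.12, adjusted p = 8.4e-07), Epha1 and Epha2. All 9 were separated from the untreated libraries without overlap, and the members' median log2 fold change was 0.32 against 0.00 over all genes. That median was 0.26 in the fifth of genes with the highest GC content and -0.13 in the lowest. The members' median GC content was 56.1% against 50.2% of the genes tested, and the part of GC content in their median was not tested. Epha2 came to -0.96 without dox replicate 3 and -0.99 without untreated replicate 2, just short of 2-fold, as did Sema3a at -0.90 with offsets adjusted for GC content. Zyx, which overlaps Epha1, fell by 1.26 on the log2 scale.

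The effect of dox at 24 h was tested against that at 0 h as an interaction. It differed by over 2-fold for 7 of 45 members (15.6%), against 5.47% of 14448 genes. Among these genes, 2.82% were more positive and 2.64% more negative. Plxnd1, Sema6b and Sema7a responded more positively at 24 h: Plxnd1 moved from 16.8, 18.1 and 16.9 to 46.2, 43.4 and 44.3 CPM at 24 h but only from 75.3, 74.0 and 75.3 to 86.8, 89.5 and 90.3 CPM at 0 h (difference of the log2 fold changes 1.04 ± 0.07, adjusted p = 2.2e-08). In untreated cells these 3 genes had themselves fallen between 0 and 24 h, and the comparison in time shares its 24 h libraries with the dox comparison. Efna5, Nrp2, Sema3c and Sema4f had the more negative response at 24 h, by 1.02 for Nrp2 to 1.74 for Sema4f on the log2 scale. The calls of Sema4f, Nrp2, Efna5 and Sema3c did not hold in every leave-one-out fit. Sema4f, near the floor, passed only without dox or untreated 0 h replicate 2 and had adjusted p between 0.05 and 0.13 in the other 10 such fits. Nrp2 came to -0.95, -0.996 and -0.99 without untreated 24 h replicate 1, dox 24 h replicate 3 and untreated 0 h replicate 3. Efna5 came to -0.99 and -0.998 without dox 0 h replicate 1 and untreated 0 h replicate 3. Sema3c came to -0.93 without dox 0 h replicate 2. With GC-adjusted offsets Plxnd1, Efna5 and Nrp2 came to 0.95, -0.95 and -0.92, under 2-fold. With RLE normalization Nrp2 and Sema4f were not called, which left 3 more positive and 2 more negative responses.

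**Figure D2:**
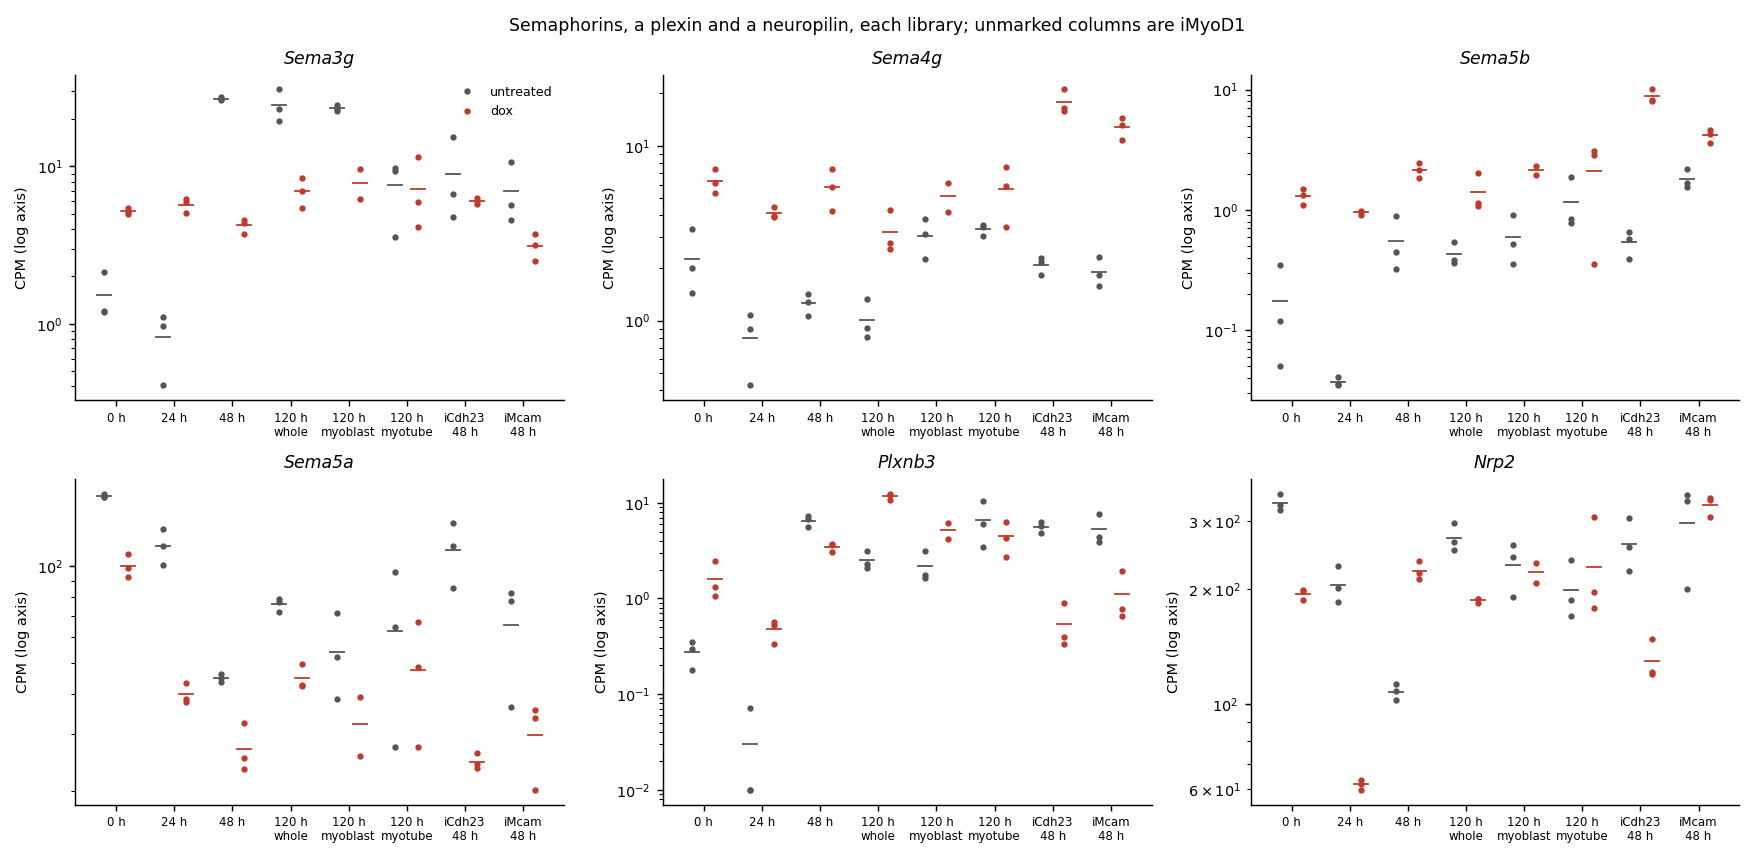
Level in CPM (log axis) of 4 semaphorins, a plexin and a neuropilin in every library, untreated in grey and with dox in red, with group means as bars; columns without a line name are C2C12 iMyoD1 and values of 0 are drawn at 0.01. Sema4g and Sema5b lie higher with dox in every column except for the crosswise libraries of the myotube-enriched fraction, while Sema3g rises with dox at 0 and 24 h and falls at 48 h.

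By 48 h the response of C2C12 iMyoD1 leaned upward. Dox raised 8 members and lowered 2 of 45 tested, 22.2% against 14.4% of all genes. Upward calls were 17.8% of the members against 5.93% of all genes, and downward calls 4.44% against 8.46%. The median log2 fold change was 0.29 over the members. It was 0.23 in the fifth of genes with the highest GC content and -0.17 in the lowest, and the part of GC content was not tested. Untreated and dox libraries did not overlap for 40 of 45 members and for 63.8% of all genes. Efna3 rose from 1.60, 1.28 and 1.65 to 8.13, 8.15 and 9.63 CPM (log2 fold change 2.48 ± 0.17, adjusted p = 6.9e-07) and its neighbour in the family Efna4 from 8.55, 8.52 and 9.86 to 23.9, 30.0 and 29.0 CPM (log2 fold change 1.60 ± 0.11, adjusted p = 8.5e-07). Sema4g went from 1.07, 1.28 and 1.43 to 7.38, 5.85 and 4.23 CPM (log2 fold change 2.19 ± 0.24, adjusted p = 2.5e-05). Sema5b went from 0.891, 0.321 and 0.446 to 1.83, 2.14 and 2.46 CPM (log2 fold change 1.95 ± 0.35, adjusted p = 0.00069). Sema3f, a secreted semaphorin that signals through Nrp2, was at 25.5, 26.7 and 24.7 CPM untreated and 70.3, 73.3 and 64.3 CPM with dox (log2 fold change 1.42 ± 0.07, adjusted p = 1.2e-07). Nrp2 itself, which dox had lowered at 24 h, was higher at 48 h (113, 102 and 108 and 237, 212 and 219.9 CPM, a log2 fold change of 1.03), and Plxna3, the plexin partner of the Sema3f and Nrp2 complex, rose by 1.16 on the log2 scale. Sema6c completed the risers at 1.03. In every one of these genes the groups did not overlap.

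Sema3g turned its direction at 48 h. Untreated libraries had climbed to 26.3, 26.8 and 27.6 CPM, whereas dox libraries held 4.57, 3.71 and 4.38 CPM (log2 fold change -2.70 ± 0.11, adjusted p = 3.3e-08), beside 5.93, 5.03 and 6.17 CPM in dox-treated cells at 24 h. Plxna4 was the other gene that fell, from 0.950, 1.02 and 0.803 to 0.265, 0.242 and 0.295 CPM, a level near the floor (log2 fold change -1.81). Among the risers, Nrp2 and Sema6c sat at the edge of the threshold: Nrp2 came to 0.99 without untreated replicate 2 and 0.99 without dox replicate 1, and Sema6c to 0.93 without untreated replicate 1. With GC-adjusted offsets, under which Nrp2 came to 0.99 and Sema6c to 0.83, 7 members were up and 4 down. The summed level of 6 myotube markers fell with dox from between 11930 and 13180 CPM to between 4825 and 5029 CPM, with 5 of the 6 called down, and that of 5 proliferation markers from between 1013 and 1037 to between 295.1 and 310.0 CPM, all 5 called down. The 3 fibroblast markers went from between 974.1 and 1077 to between 246.9 and 273.3 CPM, with 1 called down. Their part in the members' changes was not tested.

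At 120 h the whole cultures showed 5 members up and 6 down with dox of 46 tested, 23.9% against 16.1% of all genes. Over all genes, 7.32% were called up and 8.80% down. The groups did not overlap for 29 of 46 members and for 55.3% of all genes. Members of the ephrin-A axis moved in both directions. Efna3 rose from 0.837, 0.543 and 0.714 to 4.66, 5.50 and 5.29 CPM (log2 fold change 2.86 ± 0.29, adjusted p = 6.9e-05), and Epha2, the ephrin-A receptor with the highest level per length, dropped from 86.5, 64.5 and 45.5 to 10.1, 12.8 and 13.4 CPM (log2 fold change -2.45 ± 0.23, adjusted p = 3.7e-05). Each dox library of Epha2 lay below the lowest untreated one by more than 3-fold. Plxnb3 went from 3.10, 2.31 and 2.09 to 10.8, 12.5 and 11.99 CPM (log2 fold change 2.22 ± 0.21, adjusted p = 4.3e-05), and these groups did not overlap either. The remaining risers were Sema4g (1.33, 0.905 and 0.809 to 2.77, 4.31 and 2.58 CPM, log2 fold change 1.65 ± 0.36, adjusted p = 0.005) and Sema5b (0.542, 0.362 and 0.381 to 1.07, 2.02 and 1.13 CPM, log2 fold change 1.69 ± 0.47, adjusted p = 0.016), and also Sema3d (46.2, 52.3 and 62.7 to 131, 106 and 105 CPM, log2 fold change 1.07 ± 0.13, adjusted p = 0.00022). Besides Epha2, the genes that fell were Sema3g (30.9, 23.2 and 19.4 to 5.46, 6.99 and 8.40 CPM, log2 fold change -1.83 ± 0.22, adjusted p = 0.00017) and the lipid-anchored Sema7a (38.0, 31.8 and 26.2 to 9.49, 11.9 and 12.5 CPM, log2 fold change -1.52 ± 0.17, adjusted p = 0.00013). Sema4d (23.9, 19.9 and 18.6 to 9.25, 8.66 and 6.5 CPM, log2 fold change -1.37 ± 0.18, adjusted p = 0.00027) fell too, as did the receptors Ephb3 (164, 121 and 82.3 to 37.7, 53 and 43.6 CPM, log2 fold change -1.46 ± 0.23, adjusted p = 0.0008) and Ephb6, whose log2 fold change was -1.22. All 11 were without overlap.
Of these calls, 3 depended on single libraries. Ephb6 came to -0.88 without untreated replicate 1. Sema3d came to 0.97 without that library and 0.97 without dox replicate 1. The adjusted p of Sema5b reached 0.071 without untreated replicate 2 and 0.073 without dox replicate 2. GC-adjusted offsets took Ephb6 to -0.73 and Sema3d to 0.99. Myotube markers ran from 7945 to 12270 CPM untreated and from 6018 to 7615 CPM with dox (2 of 6 called down), proliferation markers from 208.8 to 248.3 and from 413.3 to 481.5 CPM (1 of 5 called up), and fibroblast markers from 436.9 to 968.4 and from 253.4 to 318.0 CPM (1 of 3 called down). Their part in the members' changes was not tested.

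In the filtered fractions fewer genes were called. The myoblast-enriched fraction, with 2 dox libraries, gave 2 members up and 1 down of 45 tested, 6.67% against 3.03% of all genes. Of all 14249 genes, 1.21% were called up and 1.82% down. The groups did not overlap for 23 of 45 members and for 40.6% of all genes. Efna3 stood at 3.13, 2.29 and 2.13 CPM untreated and at 12.6 and 10.9 CPM with dox (log2 fold change 2.24 ± 0.24, adjusted p = 0.012). Efna2 stood at 7.62, 5.92 and 6.22 and 15.02 and 14.4 CPM (log2 fold change 1.17 ± 0.19, adjusted p = 0.025). Sema3g stood at 23.3, 24.7 and 22.3 and 6.16 and 9.62 CPM (log2 fold change -1.55 ± 0.22, adjusted p = 0.02). No library of one group entered the range of the other for these 3 genes. The fibroblast markers went from between 1146 and 1562 to between 513.2 and 557.8 CPM (2 of 3 called down) and the myotube markers from between 5562 and 8584 to between 4478 and 4826 CPM (1 of 6 called down), and their part was not tested. Without untreated replicate 3, dox replicate 2 or dox replicate 3 none of the 3 passed. In that order, the adjusted p was 0.075, 0.11 and 0.051 for Efna3. For Efna2 it was 0.13, 0.18 and 0.091, and for Sema3g 0.095, 0.14 and 0.051. The log2 fold changes in all leave-one-out fits ran from 2.12 to 2.42 for Efna3, from 1.10 to 1.29 for Efna2 and from -1.91 to -1.29 for Sema3g. With all groups in 1 fit none of the 3 was called. With the replicate number as a block 5 members were up and 1 down. That fit added Efna4, Plxnb3 and Sema5b, with log2 fold changes of 1.06, 1.58 and 2.3. DESeq2 called Plxnb3 and Sema5b up as well.

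The myotube-enriched fraction gave no call among 46 members by edgeR or DESeq2, as 0.00% of 14112 genes passed by edgeR, and 1 member, Sema3f, had an unadjusted p under 0.05 by edgeR. No member's groups were without overlap, against 2.70% of all genes. Efna3 measured 1.42, 8.01 and 1.01 CPM in untreated replicates 1, 2 and 3 and 8.70, 1.72 and 10.2 CPM with dox, so both libraries labelled replicate 2 lay nearer to replicates 1 and 3 of the opposite group. Sema3d stood at 67.2, 96.7 and 63.7 CPM untreated and 8.83, 86.1 and 18.0 CPM with dox, where the library labelled dox replicate 2 alone lay within the untreated range. Without these 2 libraries, which leaves 2 against 2, Efna3 had a log2 fold change of 2.99, Sema3d of -2.26, Sema5b of 1.91 and Efna4 of 1.76, and no member was called, with an adjusted p of 0.35 for Efna3 and Sema3d and 0.42 for the other two by edgeR. The dox effect was called different between the fractions for 0 of 46 members by edgeR and by DESeq2, as for 0.00% of 15008 genes by edgeR, and Plxnb3 and Sema3g had an unadjusted p under 0.05. Leaving out both libraries labelled replicate 2 gave 0 members too.

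**Figure D3:**
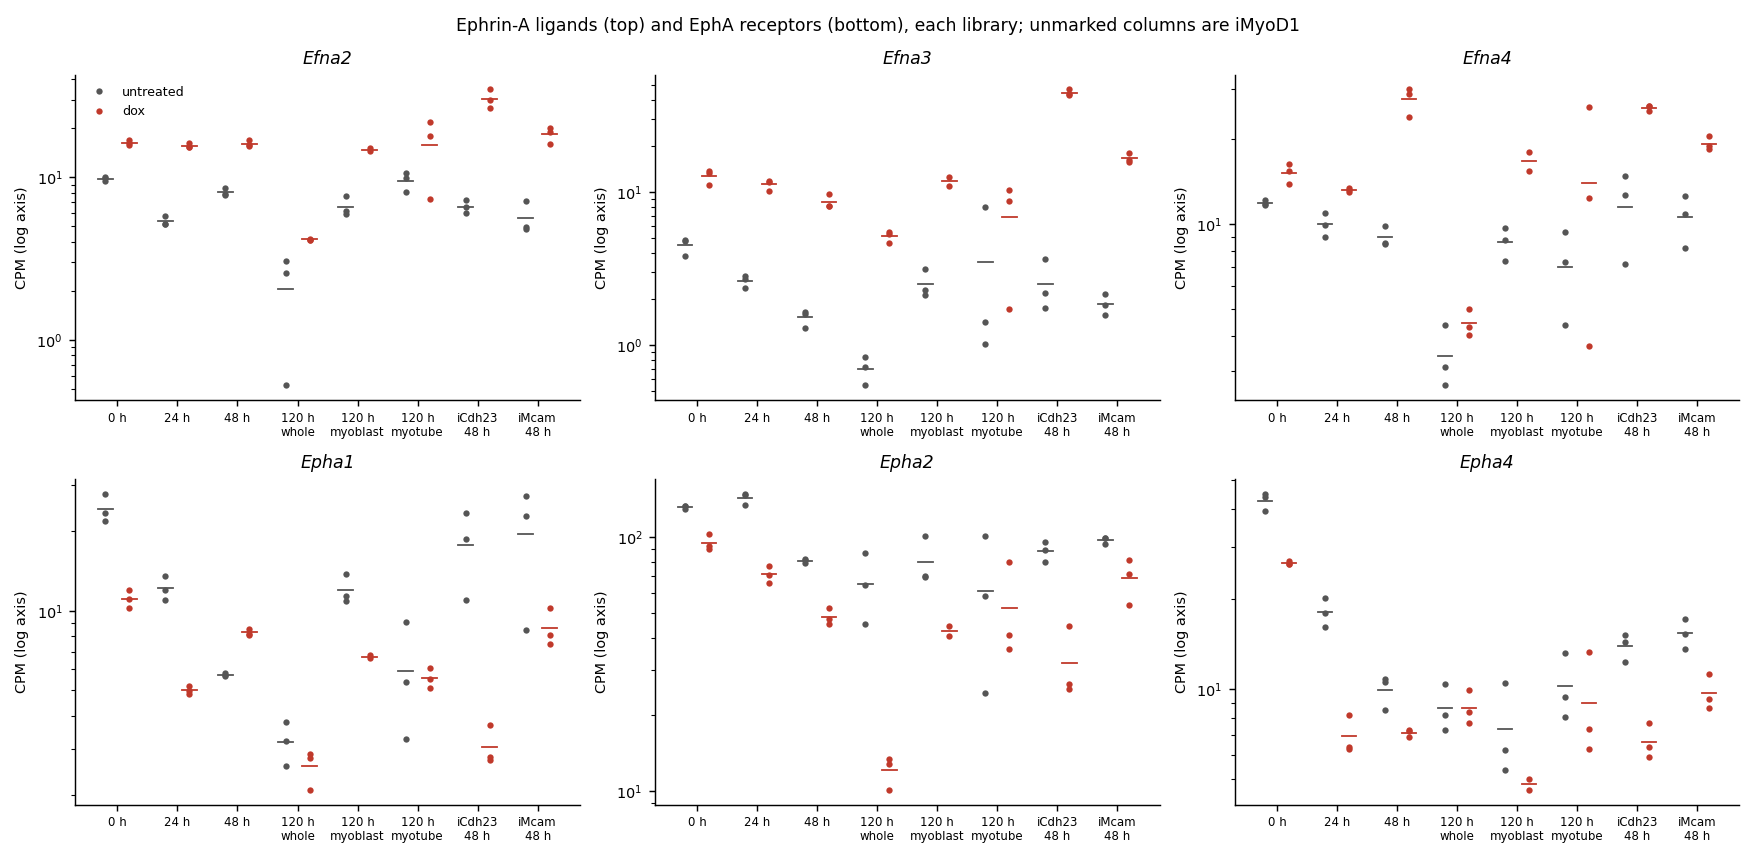
Level in CPM (log axis) of the ligands Efna2, Efna3 and Efna4 (top) and the receptors Epha1, Epha2 and Epha4 (bottom) in every library, untreated in grey and with dox in red, with group means as bars; columns without a line name are C2C12 iMyoD1. Efna3 with dox lies above every untreated library of its column except in the myotube-enriched fraction, and Epha2 with dox lies below it in the same columns.

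Of the 8 comparisons with dox, C2C12 iCdh23 had the largest share of members called, and also the largest share of all genes. Dox raised 8 and lowered 16 of 46 tested, 52.2% against 30.0% of all genes. Downward calls were 34.8% of the members against 17.0% of all genes, and upward calls 17.4% against 13.0%. The groups did not overlap for 35 of 46 members and for 70.8% of all genes. Efna3 went from 3.63, 2.19 and 1.73 to 42.9, 43.7 and 46.9 CPM (log2 fold change 4.14 ± 0.24, adjusted p = 1.2e-05), the highest level of this gene in any group, and Efna2 from 6.56, 7.18 and 6.03 to 26.6, 29.9 and 34.7 CPM (log2 fold change 2.20 ± 0.14, adjusted p = 1.4e-05). Sema5b rose from 0.576, 0.388 and 0.650 to 8.18, 10.1 and 8.10 CPM (log2 fold change 4.003 ± 0.24, adjusted p = 1.2e-05). Sema4g went from 1.82, 2.28 and 2.17 to 21.1, 16.6 and 15.9 CPM (log2 fold change 3.09 ± 0.18, adjusted p = 1.1e-05). Sema6c went from 13.1, 12.6 and 13.2 to 38.6, 30.6 and 32.9 CPM (log2 fold change 1.39 ± 0.12, adjusted p = 5.3e-05). Each of these dox libraries lay above all untreated ones. Sema3f, Plxna3 and Efna4 rose by between 1.16 and 1.33 on the log2 scale.

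On the falling side, Sema6a, a membrane-bound semaphorin, fell from 82.8, 72.4 and 97.0 to 7.76, 7.05 and 13.3 CPM (log2 fold change -3.16 ± 0.26, adjusted p = 4.3e-05). Plxnb3 fell from 4.87, 6.31 and 5.77 to 0.334, 0.397 and 0.892 CPM (log2 fold change -3.36 ± 0.36, adjusted p = 0.00016). Sema3d went from 42.7, 50.6 and 35.0 to 8.05, 6.02 and 7.53 CPM (log2 fold change -2.57 ± 0.18, adjusted p = 2.1e-05). Sema3c went from 33.6, 46.9 and 42.2 to 8.55, 6.42 and 9.81 CPM (log2 fold change -2.31 ± 0.19, adjusted p = 4.9e-05). Untreated and dox libraries were separate for each of them. Epha1 fell from 23.6, 18.6 and 11.0 to 3.67, 2.71 and 2.78 CPM (log2 fold change -2.54 ± 0.30, adjusted p = 0.00024), while its overlapping neighbour Zyx fell by 1.82 on the log2 scale. The receptor Ephb1, at no more than 3 counts in every dox library, was at least 5.71-fold lower than its untreated level of 0.443, 0.825 and 0.607 CPM (adjusted p = 0.0005). Sema5a, Ephb6, Plxna4, Efna5, Epha2, Sema7a, Epha4, Nrp2, Efnb2 and Sema6d made up the rest, with log2 fold changes from -2.70 to -1.01.
Calls near 2-fold were lost without single libraries: Efnb2, the one gene whose groups overlapped, came to -0.59 without untreated replicate 1 and -0.94 with the replicate number as a block. Nrp2 came to -0.90 and Sema6d to -0.95 without the same library. Epha4 came to -0.99 without dox replicate 3, and Efna4 to 0.90 without untreated replicate 3. Without dox replicate 3 Efnb2, Nrp2 and Sema6d came to -0.93, -0.97 and -0.98. Without dox replicate 2 Efnb2 and Nrp2 to -0.85 and -0.94. Without untreated replicate 2 Efnb2 had an adjusted p of 0.082 and Sema6d a log2 fold change of -0.997. With the replicate number as a block, which pairs these libraries, Sema4d was called up (log2 fold change 1.11, adjusted p = 0.023 by edgeR), which made 9 up and 15 down. GC-adjusted offsets took Efna4, Nrp2 and Sema6d to 0.94, -0.99 and -0.96. Myotube markers fell with dox in this line from summed levels of 4793 to 7812 CPM to levels of 31.9 to 112.5 CPM, all 6 called, and the 5 proliferation markers from between 640.0 and 978.6 to between 17.9 and 32.7 CPM, all 5 called. All 3 fibroblast markers were called down as well, from between 315.9 and 830.0 to between 40.9 and 63.5 CPM. Of the 5 myoblast markers 4 were called down, with the sum going from between 1707 and 1928 to between 371.1 and 440.2 CPM. The part of these changes in the members' was not tested.

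In C2C12 iMcam dox raised 7 and lowered 8 of 45 members tested, 33.3% against 16.8% of all genes. Over all genes, 6.99% were called up and 9.85% down. Groups did not overlap for 26 of 45 members and for 60.3% of all genes. All 7 genes that rose were also called up in C2C12 iCdh23. Efna3 went from 2.15, 1.81 and 1.57 to 16.3, 18.0 and 15.8 CPM (log2 fold change 3.21 ± 0.16, adjusted p = 0.00012). Sema4g went from 2.33, 1.81 and 1.57 to 14.4, 13.2 and 10.8 CPM (log2 fold change 2.79 ± 0.21, adjusted p = 0.00016). Efna2 went from 4.83, 4.97 and 7.08 to 16.0, 20.1 and 19.1 CPM (log2 fold change 1.74 ± 0.18, adjusted p = 0.00041). Sema6c rose from 12.7, 9.74 and 7.61 to 27.6, 30.4 and 27.4 CPM (log2 fold change 1.54 ± 0.18, adjusted p = 0.00067). Sema5b went from 1.67, 1.54 and 2.20 to 3.58, 4.64 and 4.28 CPM (log2 fold change 1.23 ± 0.22, adjusted p = 0.0036), and Plxna3 and Sema3f by 1.19 and 1.11 on the log2 scale. All 7 were separated from untreated cells. Sema6a fell from 58.3, 75.3 and 78.9 to 8.91, 11.9 and 21.6 CPM (log2 fold change -2.29 ± 0.30, adjusted p = 0.001). Plxnb3 went from 3.88, 4.37 and 7.56 to 0.783, 0.662 and 1.93 CPM (log2 fold change -2.17 ± 0.45, adjusted p = 0.0059). Sema7a went from 29.4, 41.4 and 76.1 to 13.3, 10.8 and 10.4 CPM (log2 fold change -2.05 ± 0.33, adjusted p = 0.0022). Sema3d, at 33.9, 40.4 and 37.1 CPM untreated and 12.7, 11.4 and 18.8 CPM with dox (log2 fold change -1.34 ± 0.19, adjusted p = 0.0013), also did not overlap. Sema3g went from 5.67, 4.57 and 10.6 to 2.50, 3.16 and 3.73 CPM (log2 fold change -1.12 ± 0.33, adjusted p = 0.026). Ephb1, Epha1 and Sema5a were also called down, with adjusted p between 0.029 and 0.044, and the groups of Ephb1 and Epha1 overlapped.
These last 4 calls rested on single libraries. Epha1 was lost in each leave-one-out fit but the one without untreated replicate 3 (adjusted p between 0.071 and 0.12), and Ephb1 in each but the one without untreated replicate 1 (adjusted p between 0.065 and 0.13). Sema3g came to -0.68 without untreated replicate 3, -0.98 without dox replicate 1 and an adjusted p of 0.074 without dox replicate 2. Sema5a had adjusted p between 0.063 and 0.087 without untreated replicate 1 or 2 or dox replicate 2 or 3. Sema3f came to 0.93 with GC-adjusted offsets. With all groups in 1 fit Sema5b, Sema3d and Sema3g did not pass (adjusted p of 0.081, 0.051 and 0.072 by edgeR). Myotube markers fell with dox here too, from between 3558 and 8657 to between 451.2 and 1377 CPM, and proliferation markers from between 611.7 and 777.0 to between 56.2 and 113.9 CPM, with all 6 and all 5 called. Fibroblast markers ran from 437.0 to 1109 CPM untreated and from 125.6 to 154.5 CPM with dox, with 1 of 3 called. The myoblast markers went from between 1305 and 1987 to between 501.0 and 768.5 CPM, with 3 of 5 called down. Their part was not tested.

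The 2 lines were set against each other directly. In untreated cells 0 of 46 members were called by edgeR without a block, against 0.350% of all genes, and 7 had an unadjusted p under 0.05. Of all genes, 0.146% were higher and 0.204% lower in C2C12 iCdh23. The groups did not overlap for 7 members and for 17.1% of all genes. The replicate numbers pair the libraries of these lines, and with the number as a block Plxna4, Sema5b and Sema7a were lower in C2C12 iCdh23, the first 2 by log2 fold changes of -1.97 and -1.74 and Sema7a just past 2-fold (adjusted p = 0.026 by edgeR). DESeq2 called these 3 as well. The effect of dox differed between the lines for 7 of 46 members (15.2%), against 6.49% of 14552 genes, 1.02% with a more positive and 5.47% with a more negative effect in C2C12 iCdh23. Sema5b rose more in C2C12 iCdh23 (difference of log2 fold changes 2.79 ± 0.31, adjusted p = 0.00043), which also started from the lower untreated level. Sema3c fell there but stood at 33.2, 43.7 and 31.5 CPM untreated and 29.1, 34.2 and 41.9 CPM with dox in C2C12 iMcam (difference -2.28 ± 0.28, adjusted p = 0.00061). Plxna4, Ephb6, Sema3d, Nrp2 and Sema3e had likewise the more negative response in C2C12 iCdh23, by between 1.09 and 2.34 on the log2 scale. Sema3e passed only without untreated replicate 3 or dox replicate 1 of C2C12 iCdh23 or untreated replicate 2 of C2C12 iMcam, with adjusted p between 0.055 and 0.1 in the other 9 leave-one-out fits, and it did not pass with GC-adjusted offsets. Plxna4 had adjusted p between 0.053 and 0.082 without untreated replicate 3 or dox replicate 1 or 3 of C2C12 iCdh23 or without untreated replicate 1 or 2 or dox replicate 1 of C2C12 iMcam. Ephb6 reached 0.051, 0.051 and 0.052 without dox replicate 2 or 3 of C2C12 iCdh23 and dox replicate 1 of C2C12 iMcam. Nrp2 had an adjusted p of 0.051 without dox C2C12 iCdh23 replicate 2 and a difference of -0.98 without untreated C2C12 iMcam replicate 3, and Sema3d a difference of -0.98 without dox C2C12 iMcam replicate 3. With all groups in 1 fit Sema5b, Sema3c and Ephb6 passed, while Nrp2, Plxna4, Sema3e and Sema3d had adjusted p of 0.055, 0.14, 0.41 and 0.59 by edgeR. With the block 1 was more positive and 8 were more negative in C2C12 iCdh23. The myotube markers also fell further in C2C12 iCdh23, by a median difference of -3.69 on the log2 scale with all 6 called, as did 4 of the 5 proliferation markers.

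Across the 8 comparisons of dox with untreated cells, which share no library, Efna3 was called up in 7, Sema4g and Sema5b in 6, Efna2 and Sema6c in 4, and Plxna3, Sema3f and Plxnb3 in 3. Epha1 and Sema3g were called down in 4, and Epha2, Sema5a and Sema7a in 3. The genes called in both directions were 4: Sema3g, Plxnb3, Nrp2 and Sema3d. Plxnb3 rose in C2C12 iMyoD1 at 0, 24 and 120 h and fell in the other 2 lines at 48 h, while at 48 h in C2C12 iMyoD1 it stood at 7.31, 6.75 and 5.53 CPM untreated and 3.75, 3.06 and 3.64 CPM with dox without passing 2-fold (log2 fold change -0.92). There it was called down with GC-adjusted offsets (-1.09) and without untreated replicate 3 (-1.03). No difference between lines or times was tested here beyond the interactions given above.

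Within the ephrin-A system, ligands and receptors were summed per library as TPM. In untreated cells at 0 h the ephrin-A genes summed to 84.0 ± 1.16 and the EphA genes to 93.7 ± 1.13 TPM (mean ± SD), a ratio of 0.896 ± 0.0227, and with dox the ratio was 1.43 ± 0.113. It went from 0.720 ± 0.0159 to 1.83 ± 0.113 at 24 h, from 1.16 ± 0.0441 to 3.179 ± 0.406 at 48 h, and from 0.835 ± 0.107 to 3.05 ± 0.140 in the whole cultures of 120 h. In the myoblast-enriched fraction it was 1.27 ± 0.229 and 3.20 ± 0.318. In C2C12 iCdh23 it rose from 0.958 ± 0.0699 to 7.18 ± 2.03 and in C2C12 iMcam from 0.793 ± 0.0996 to 2.09 ± 0.345. In each of these 7 comparisons every dox library had a higher ratio than every untreated one. With 3 libraries against 3, an exact permutation test cannot go below p = 0.1, so no p is given for these sums. The myotube-enriched fraction was the exception, where the ratios ran from 0.859 to 2.91 untreated and from 0.913 to 4.62 with dox. Without its crosswise libraries they were 0.859 and 1.38 untreated and 3.23 and 4.62 with dox. Efna2, Efna3 and Efna4 together made up 33.2% ± 0.443 of the ephrin-A sum in untreated cells at 0 h and 51.02% ± 1.12 with dox, and 38.4% ± 5.48 and 73.2% ± 0.402 in C2C12 iCdh23. Efna1, the most abundant ligand per length in untreated cells at 0 h, was never called and kept group means between 15.1 and 37.8 CPM.

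**Figure D4:**
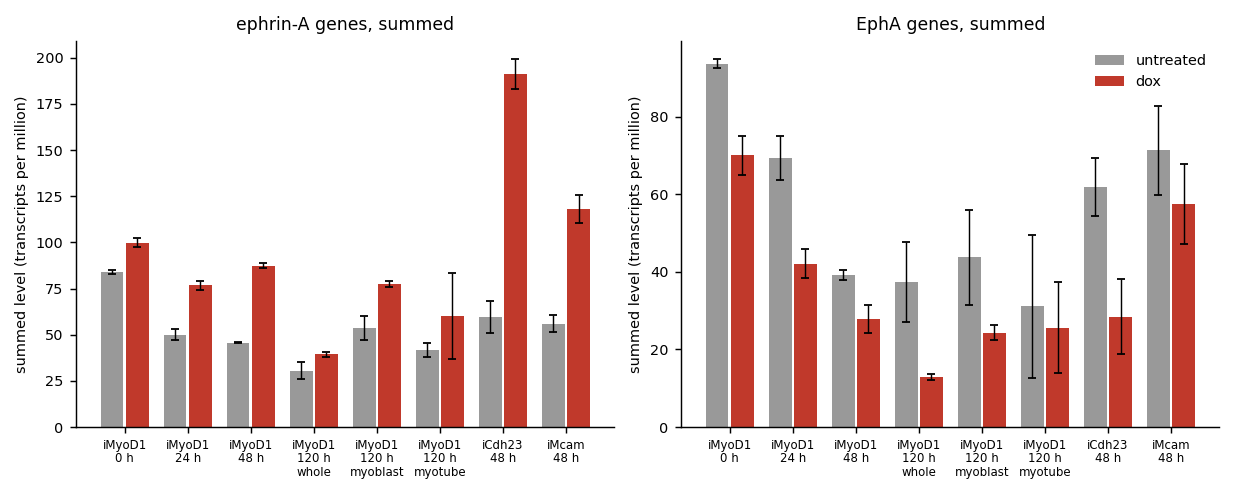
Summed level of the 5 ephrin-A genes (left) and the 9 EphA genes (right) in TPM, as mean with SD of the libraries of each group (3, or 2 in the myoblast-enriched fraction with dox), untreated in grey and with dox in red. The mean ligand sum is higher with dox in each column and reaches 191.1 in C2C12 iCdh23, while the mean receptor sum is lower in each column. The error bars of both sums overlap in the myotube-enriched column, and those of the receptor sum in C2C12 iMcam as well.

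The paralogs Sema5a and Sema5b, both membrane-bound semaphorins with thrombospondin repeats, moved in opposite directions under dox. Sema5a was called down at 24 h, in C2C12 iCdh23 and in C2C12 iMcam, and Sema5b was called up in all 3. Their summed level per length was 16.98 ± 3.08 TPM untreated and 7.73 ± 0.607 with dox at 24 h, and 21.2 ± 4.86 and 12.04 ± 0.6996 in C2C12 iCdh23. In C2C12 iMcam the sums overlapped, with 13.9 ± 5.28 TPM untreated and 9.91 ± 1.67 with dox. By contrast, the class 3 semaphorins summed to 117 ± 6.86 TPM untreated and 170.1 ± 16.9 with dox at 48 h, and to 191 ± 24.6 and 318 ± 11.5 in C2C12 iMcam, without overlap. The sums were also higher with dox without overlap at 24 h (59.8 ± 3.51 and 78.8 ± 2.401 TPM), in whole cultures of 120 h (139 ± 14.1 and 180.3 ± 8.36 TPM) and in C2C12 iCdh23 (182 ± 2.13 and 232 ± 39.6 TPM). At 0 h they were 159.9 ± 4.29 and 172 ± 6.54 TPM, with the highest untreated library at 164.5 and the lowest dox library at 165.3 TPM. The groups overlapped in the myoblast-enriched fraction, and also in the myotube-enriched fraction, where the mean went from 187.6 to 171.7 TPM and, without the crosswise libraries, from 182.5 to 164.2 TPM. All these sums leave out the factor used for CPM, and a higher factor lowers a CPM. That factor was 1.03 to 1.038 untreated and 1.119 to 1.123 with dox at 0 h. In C2C12 iCdh23 it was 0.951 to 0.995 untreated and 1.203 to 1.228 with dox. The class 3 sums were not taken on the scale of CPM, so whether they rise there was not tested.

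Differentiation itself, without dox, was followed in untreated C2C12 iMyoD1 cells. From 0 to 24 h, 14 members fell and 2 rose of 43 tested, 37.2% against 26.1% of all genes. Downward calls were 32.6% of the members against 16.6% of all genes, and upward calls 4.65% against 9.49%. The libraries of 0 and 24 h did not overlap for 40 of 43 members and for 76.0% of all genes. The median log2 fold change was -0.81 over the members and 0.01 over all genes. Sema7a went from 35.5, 31.5 and 32.0 to 3.61, 3.44 and 3.88 CPM (log2 fold change -3.14 ± 0.10, adjusted p = 6.6e-12). Sema6b went from 5.08, 6.05 and 6.24 to 0.731, 0.709 and 0.623 CPM (log2 fold change -3.03 ± 0.21, adjusted p = 1.2e-08). Plxnd1 went from 75.3, 74.0 and 75.3 to 16.8, 18.1 and 16.9 CPM (log2 fold change -2.08 ± 0.06, adjusted p = 3.2e-12). Ephb6 fell from 129.8, 137 and 140.5 to 34.8, 37.5 and 32.8 CPM (log2 fold change -1.92 ± 0.07, adjusted p = 1e-11). Sema3f went from 62.7, 63.7 and 62.0 to 16.1, 17.6 and 17.6 CPM (log2 fold change -1.84 ± 0.07, adjusted p = 1.4e-11). None of these 24 h libraries reached the 0 h range. All 5 proliferation markers were called down in this step, from summed levels between 2298 and 2316 to between 580.8 and 634.2 CPM. The fibroblast sum went from between 214.4 and 234.9 to between 9.10 and 11.3 CPM (2 of 3 called down and 1 up), and 4 of the 6 myotube markers were tested and called up. Their part was not tested. Sema3c, which guides through Nrp1, Nrp2 and Plxnd1, rose from 1.91, 1.40 and 1.45 to 16.2, 14.9 and 15.03 CPM (log2 fold change 3.32 ± 0.14, adjusted p = 1e-10). Sema4f went from 0.0598, 0.250 and 0.150 to 1.22, 1.63 and 1.32 CPM (log2 fold change 3.13 ± 0.44, adjusted p = 2e-05). Ephb3 and Efnb1, among the falls, came to -0.99 and -0.99 without 24 h replicate 3, and Ephb3 to -0.98 without 0 h replicate 2. GC-adjusted offsets took Ephb3, Efnb1 and Sema6c to -0.89, -0.94 and -0.95.

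From 24 to 48 h the direction was the opposite, with 20 members up and 4 down of 45 tested, 53.3% against 30.4% of all genes. Upward calls were 44.4% of the members against 19.3% of all genes, and downward calls 8.89% against 11.1%. The libraries of 24 and 48 h did not overlap for 39 of 45 members and for 78.6% of all genes. The 24 h libraries are common to both steps in time, which ties the directions together. The 24 and 48 h libraries also differ in their batch label and their deposited table, so time and batch cannot be told apart here. The 6 myotube markers summed to between 10.4 and 11.5 CPM in the former and between 11930 and 13180 CPM in the latter, and all 3 fibroblast markers rose, from between 9.10 and 11.3 to between 974.1 and 1077 CPM. Of the 5 myoblast markers 4 were called up, with the sum going from between 370.1 and 389.3 to between 2373 and 2577 CPM. Of the 5 proliferation markers 1 was called up. The part of these markers in the members' changes was not tested. Plxnb3, at most 3 counts in every library of 24 h, was at least 59.3-fold higher at 48 h (adjusted p = 2.2e-09), with 7.31, 6.75 and 5.53 CPM. Sema3g rose from 0.406, 1.10 and 0.970 to 26.3, 26.8 and 27.6 CPM (log2 fold change 5.00 ± 0.19, adjusted p = 4.1e-11). Sema6a went from 4.47, 5.21 and 4.88 to 88.1, 81.2 and 79.3 CPM (log2 fold change 4.09 ± 0.08, adjusted p = 5.6e-14). Sema3d went from 2.31, 2.27 and 2.53 to 32.0, 31.3 and 32.0 CPM (log2 fold change 3.74 ± 0.10, adjusted p = 1.1e-12). Plxnd1 climbed to 160.1, 157 and 149 CPM (log2 fold change 3.176) and Sema6b to 8.61, 8.89 and 9.42 CPM (log2 fold change 3.71 ± 0.18, adjusted p = 3.8e-10). In each case all libraries of 48 h were above those of 24 h. Sema4f, at most 3 counts in every library of 48 h, was at least 8.93-fold lower (adjusted p = 2e-06), and Sema5a fell from 130.3, 115 and 100.3 to 46.3, 45.0 and 43.8 CPM (log2 fold change -1.35 ± 0.08, adjusted p = 7.3e-09). Efna5 went from 22.9, 25.6 and 23.7 to 12.8, 10.5 and 10.1 CPM (log2 fold change -1.11 ± 0.10, adjusted p = 3.8e-07). Epha1 went from 11.0, 12.02 and 13.54 to 5.70, 5.68 and 5.80 CPM (log2 fold change -1.08 ± 0.12, adjusted p = 2.6e-06). These 4 genes had no overlap either. Plxnb1 and Sema6d came to 0.98 and 0.85 without 24 h replicate 3, and Sema6d also missed 2-fold without 24 h replicate 2 (0.92) or 48 h replicate 2 (0.94). GC-adjusted offsets took Efna5, Ephb2, Ephb6 and Plxnb1 to between -0.89 and 0.999.

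From 48 to 120 h, 6 members rose and 7 fell of 45 tested, 28.9%, near the 29.8% of all genes. Of all genes, 11.7% were called up and 18.1% down. The libraries of 48 and 120 h did not overlap for 33 of 45 members and for 73.2% of all genes. Nrp2 rose from 113, 102 and 108 to 265, 252 and 297 CPM (log2 fold change 1.35 ± 0.09, adjusted p = 3.2e-06). Sema4d went from 9.09, 8.73 and 8.79 to 23.9, 19.9 and 18.6 CPM (log2 fold change 1.25 ± 0.13, adjusted p = 3.1e-05). Sema6a went from 88.1, 81.2 and 79.3 to 170.4, 191 and 197 CPM (log2 fold change 1.19 ± 0.09, adjusted p = 6.1e-06), where the untreated libraries of 0 h had held 3.77, 2.85 and 3.09 CPM. The libraries of 120 h lay above those of 48 h in all 3. Plxna4 went from 0.950, 1.02 and 0.803 to 3.35, 3.66 and 1.81 CPM (log2 fold change 1.69 ± 0.33, adjusted p = 0.0016) and Plxna2, another receptor of class 3 and 6 semaphorins, from 54.4, 53.8 and 51.6 to 99.0, 106 and 118 CPM (log2 fold change 1.03 ± 0.10, adjusted p = 1.7e-05). Epha7, at no more than 3 counts in every library of 48 h, was at least 5.60-fold higher. Among the 7 genes that fell, 4 were ephrin-A ligands: Efna2 went from 7.90, 8.62 and 7.81 to 3.05, 2.58 and 0.523 CPM (log2 fold change -1.96 ± 0.43, adjusted p = 0.0029). Efna5 went from 12.8, 10.5 and 10.1 to 3.94, 3.21 and 3.997 CPM (log2 fold change -1.56 ± 0.17, adjusted p = 4.1e-05). Efna4 went from 8.55, 8.52 and 9.86 to 4.38, 2.67 and 3.09 CPM (log2 fold change -1.40 ± 0.20, adjusted p = 0.00025). Efna3 went from 1.60, 1.28 and 1.65 to 0.837, 0.543 and 0.714 CPM (log2 fold change -1.10). Plxnb3 fell from 7.31, 6.75 and 5.53 to 3.10, 2.31 and 2.09 CPM (log2 fold change -1.36 ± 0.21, adjusted p = 0.00037) and Ephb4, an ephrin-B2 receptor, from 55.2, 52.1 and 51.1 to 28.2, 24.0 and 17.5 CPM (log2 fold change -1.17 ± 0.15, adjusted p = 0.00014). All 5 proliferation markers were called down from 48 to 120 h, from between 1013 and 1037 to between 208.8 and 248.3 CPM, as was 1 of the 6 myotube markers, and their part was not tested. The whole cultures of 120 h differed from the other libraries in GC content. Across all genes the median log2 fold change from 48 to 120 h went from 0.41 in the fifth of genes with the lowest GC content to -0.79 in the highest, and the members' median GC content was 56.1% against 50.1% of the genes tested. With GC-adjusted offsets Efna4, Efna3, Ephb4, Plxna2 and Sema6a came to -0.88, -0.41, -0.49, 0.87 and 0.97, under 2-fold, Ephb6 turned from -1.03 to 0.09, and 7 members were up and 4 down. Efna3 was also lost without 48 h replicate 1 or 3 or 120 h replicate 2 (adjusted p 0.053 and 0.063, and a log2 fold change of -0.94). Ephb6 was lost without 48 h replicate 3 (-0.98) or 120 h replicate 3 (-0.75), and Plxna2 without 120 h replicate 3 (0.96).

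**Figure D5:**
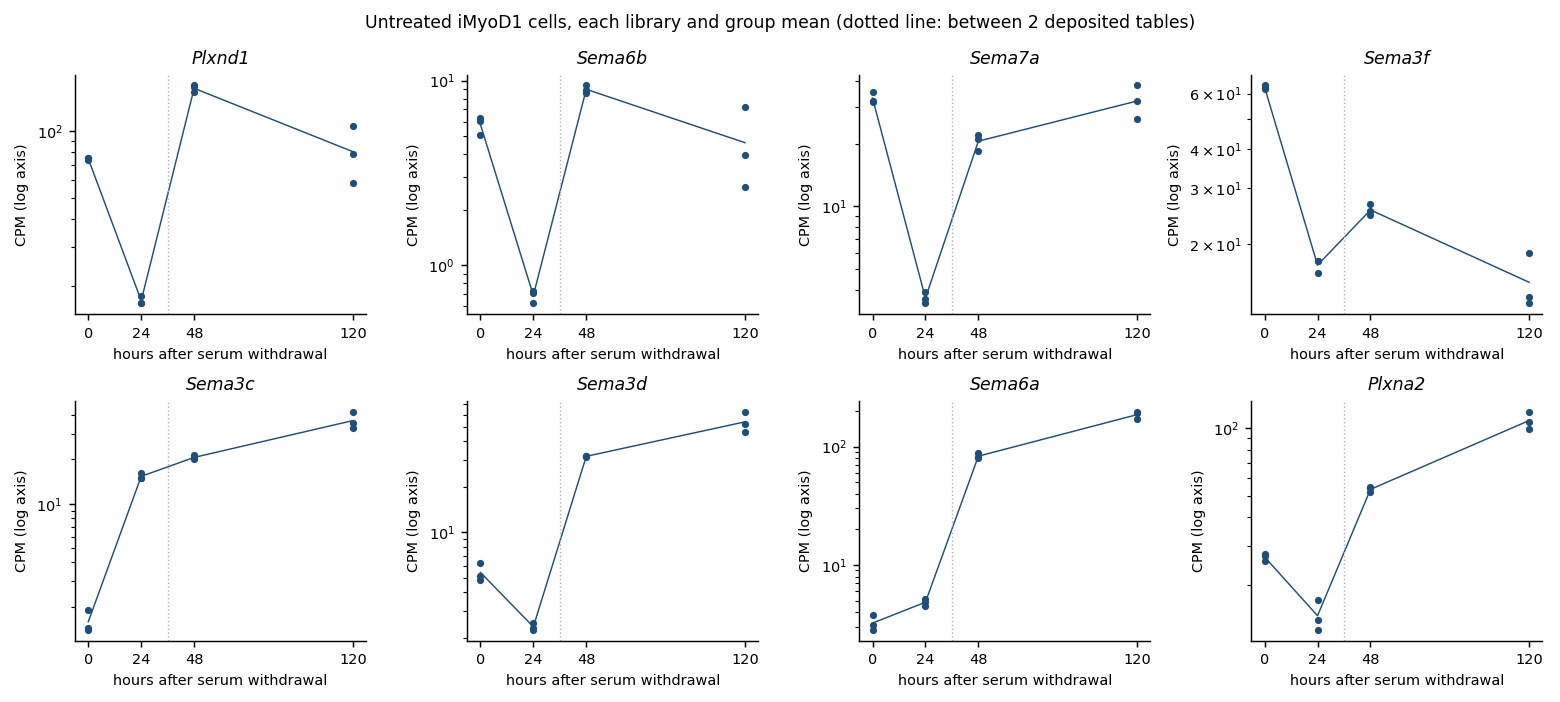
Level in CPM (log axis) of 8 members in untreated C2C12 iMyoD1 whole cultures against hours after serum withdrawal, with each library as a point and a line through the group means; the dotted line separates libraries of 2 deposited tables and batch labels. Plxnd1, Sema6b and Sema7a are lowest at 24 h, and Sema6a and Plxna2 are highest at 120 h.

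Between the fractions of untreated 120 h cultures, 2 of 45 members differed, 4.44% against 0.585% of all genes, and both were higher in the myotube-enriched fraction. Of all genes, 0.570% were higher and 0.0143% lower there. The fractions did not overlap for 10 members and for 23.1% of all genes. Sema3d stood at 20.5, 17.4 and 23.8 CPM in the myoblast-enriched and 67.2, 96.7 and 63.7 CPM in the myotube-enriched libraries (log2 fold change 1.91 ± 0.21, adjusted p = 0.029). Sema6c stood at 12.4, 12.8 and 20.3 and 34.7, 59.5 and 74.8 CPM (log2 fold change 1.92 ± 0.31, adjusted p = 0.048), without overlap. Sema3g, at 23.3, 24.7 and 22.3 CPM in the myoblast-enriched and 9.79, 3.55 and 9.37 CPM in the myotube-enriched libraries, did not pass (adjusted p = 0.087), but was called lower in the latter by edgeR with the replicate number, which pairs these libraries, as a block (log2 fold change -1.72, adjusted p = 0.038). Without the crosswise untreated replicate 2 of the myotube-enriched fraction, Sema3d kept 1.68 (adjusted p = 0.035) and Sema6c came to an adjusted p of 0.08. In that fit Sema4d was called higher in the myotube-enriched fraction (log2 fold change 2.07, adjusted p = 0.035 by edgeR) and Sema3g lower (-1.28, adjusted p = 0.040), so that 2 members were higher and 1 was lower. Leaving out myotube-enriched replicate 3 or any myoblast-enriched library ended both calls, with adjusted p between 0.1 and 0.2. Sema3d was also lost with all groups in 1 fit, and Sema6c with GC-adjusted offsets. The summed myotube markers ran from 11560 to 19480 CPM in the myotube-enriched and from 5562 to 8584 CPM in the myoblast-enriched libraries.

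Downstream of the receptors, 49 genes of the signalling machinery were listed, among them the CRMP proteins that carry semaphorin signals to microtubules, the Rnd GTPases that bind plexins, and the kinases and exchange factors that Eph receptors use. Dox called 1 up and none down of 41 tested at 0 h, 4 up and 2 down of 41 at 24 h, 1 and 3 of 39 at 48 h, 2 and 4 of 39 in whole cultures of 120 h, and 1 and 1 of 41 in the myoblast-enriched fraction. None of 40 passed in the myotube-enriched fraction, with or without the crosswise libraries. In C2C12 iCdh23 6 rose and 9 fell of 42, and in C2C12 iMcam 3 rose and 4 fell of 41. The shares called, beside those of all genes, were 2.44% against 4.27% at 0 h, 14.6% against 13.1% at 24 h, 10.3% against 14.4% at 48 h and 15.4% against 16.1% in whole cultures of 120 h. In the myoblast-enriched fraction the share was 4.88% against 3.03%, in C2C12 iCdh23 35.7% against 30.0% and in C2C12 iMcam 17.1% against 16.8%. Rnd2 was called up in 6 of these 8 comparisons, with log2 fold changes from 1.15 ± 0.21 (adjusted p = 0.035, myoblast-enriched) to 2.44 ± 0.20 (adjusted p = 2.1e-05, whole cultures of 120 h). Dpysl3, a CRMP gene, was called down in 6, from log2 fold change -1.11 ± 0.09, adjusted p = 1.7e-05 in the whole cultures of 120 h to log2 fold change -3.94 ± 0.12, adjusted p = 3.9e-06 in C2C12 iCdh23, where it went from 583.5 ± 55.7 to 38.1 ± 2.58 CPM (SD, n = 3). Its relative Dpysl5 moved the other way and was called up in 4, in C2C12 iCdh23 from 0.123 ± 0.0752 to 9.10 ± 0.155 CPM (log2 fold change 6.17 ± 0.32, adjusted p = 7.7e-06). Fyn, a Src family kinase used by semaphorin 3A and Eph signalling, was called down in 3, most in whole cultures of 120 h, from 190.9 ± 12.4 to 44.4 ± 2.03 CPM (log2 fold change -2.12 ± 0.09, adjusted p = 5.3e-07).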

How the data were processed

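PolyA RNA of 47 libraries in 16 groups was sequenced by the study. The authors ran nf-core/rnaseq with Salmon (build mm10 in the submitters' processing notes) and deposited 3 tables of estimated counts per transcript, not scaled to depth or length. Between 30.97% and 34.36% of the values in a table, zeros included, lay over 1e-06 from a whole number. The annotation release and the strand setting were not given in the sources used here. Transcripts were matched to gene names through their identifiers (98.72% of 109617), summed per gene and rounded.

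Each comparison was fitted on its own groups with edgeR 4.0.16 (quasi-likelihood test, its default low-count filter, TMM normalization) in R 4.3.3, with Benjamini-Hochberg adjustment over all genes tested and a threshold of 0.05 and 2-fold. SE is the log2 fold change divided by the square root of F. A group with at most 3 counts in every library was set to that floor, and the fold is then a lower bound that covers counting error only. The library totals ranged from 15066338 to 50950674. On simulated data with 200 genes changed 4-fold, 191 were recovered for the 24 h design with 5 false calls among 14078 genes, 176 with 22 false calls for the myoblast-enriched design among 14249, and 92 with 5 false calls for the myotube-enriched design among 14112.

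Alternatives were DESeq2 1.42.0, RLE normalization, no filter, all groups in 1 fit, the replicate number as a block and leaving out each library. Offsets adjusted for transcript GC content in 20 bins and the omission of the crosswise libraries were added after the data were seen. Deviations from group means of same-numbered libraries correlated by more than 0.1 in every pair for dox in C2C12 iCdh23 (0.14 to 0.279) and C2C12 iMcam (0.412 to 0.52), for untreated C2C12 iCdh23 against C2C12 iMcam (0.143 to 0.607) and between untreated fractions (0.209 to 0.542), so numbers were taken to pair these libraries. For dox in the myoblast-enriched fraction the 2 shared numbers correlated by 0.409 and 0.569. With only 2 dox libraries these numbers were not taken as pairs. Over 46 pairs of replicates the chi-square per gene was 2.95 to 377.45, above sampling noise.

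The members, the gene lists (signalling, myoblast, myotube, proliferation and fibroblast genes) and the tests were chosen with earlier results of these data known. Any member could be named with its level. Full statistics were kept for up to 5 rises and 5 falls per comparison, the largest among called members with a mean of at least 1 CPM in a group and no overlap, and for genes at the floor as a bound. Signalling genes were named where called in at least 3 of the 8 comparisons with dox.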

Additional observations from a re-analysis of the deposited data

Results flagged for a closer look

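The dox effect of 14 cases among the members differed between times or between lines by edgeR's test of the difference itself, with a difference of log2 fold changes over 1 in size. Between 24 and 0 h in C2C12 iMyoD1, the difference was 1.04 for Plxnd1, 1.84 for Sema6b and 1.65 for Sema7a, so that dox acted more positively at 24 h. With offsets adjusted for GC content Plxnd1 came to 0.95, Efna5 to -0.95 and Nrp2 to -0.92. Without that adjustment the difference was -1.09 for Efna5, -1.02 for Nrp2, -1.34 for Sema3c and -1.74 for Sema4f. Between C2C12 iCdh23 and C2C12 iMcam, the difference was 2.79 for Sema5b, -2.28 for Sema3c, -2.34 for Plxna4, -1.43 for Ephb6, -1.21 for Sema3d, -1.2 for Nrp2 and -1.09 for Sema3e. Nrp2 and Sema3c appear in both sets. The myotube markers differed between the 2 lines in the same test, all 6 with a larger fall in C2C12 iCdh23, and their part in the members' differences was not tested.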

How the results depend on the processing

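Over the 156 calls of a member in a comparison or a difference of dox effects, RLE normalization left 154 on the same side of the threshold, DESeq2 154, the replicate block 153, no low-count filter 152, all groups in 1 fit 141 and GC-adjusted offsets 129. Leaving out a library kept 910 of 1017. A single call reversed, Ephb6 from 48 to 120 h, which came to 0.0853 with GC-adjusted offsets. Counts of called members moved over 1.5 times in 5 contrasts. For dox in the myoblast-enriched fraction, 3 became 5 with DESeq2, 5 without the filter, 0 with all groups in 1 fit, 6 with the replicate block (the 2 shared numbers were not taken as pairs) and 0 to 6 in leave-one-out fits. Between untreated fractions, 2 became 6 with DESeq2, 5 without the filter, 1 with GC-adjusted offsets and 0 to 3 in leave-one-out fits. Between untreated C2C12 iCdh23 and C2C12 iMcam, 0 became 3 with DESeq2 and 3 with the block. For 24 against 0 h, 7 became 4 with GC-adjusted offsets and 5 to 8 in leave-one-out fits. For C2C12 iCdh23 against C2C12 iMcam, 7 became 3 with all groups in 1 fit and 4 to 7 in leave-one-out fits. The causes were not tested. In paired comparisons, beyond the counts and genes given in the report, the block ended no other call. For members at the floor of 3 counts only bounds are given.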

Other observations

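Whole cultures and fractions of 120 h were processed differently and come from 2 deposited tables, so they were compared only as levels. In untreated cells, 10 of 36 members with a mean of at least 5 CPM were more than 2-fold lower in whole cultures than in the mean of both fractions, against 13.14% of 10765 genes, and with dox 11 of 37 members, against 17.78% of 10824 genes. The median log2 difference, whole minus fractions, went from 0.29 in the fifth of genes with the lowest GC content to -0.65 in the highest for untreated cells and from 0.48 to -1.10 with dox. Over the members it was -0.21 and -0.54. Without the crosswise myotube-enriched libraries, 9 of 36 members against 13.7% of 10784 genes were lower in untreated cells and 13 of 40 against 18.82% of 10820 genes with dox, and the members' medians were -0.28 and -0.61.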
